A study of Mus musculus with 3 samples.

Results

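The genes described here are the 10 core genes of the circadian clock, Arntl, Clock, Npas2, Per1, Per2, Per3, Cry1, Cry2, Dbp and Tef, chosen by name and not by their values. All 10 were present among the 24346 gene symbols of the data. The RNA came from wild-type mouse distal colon, strain given as JAX, aged 8 weeks, labelled as steady state with no agent given. Polyadenylated RNA was sequenced from whole rinsed and frozen tissue, and the 3 labelled files (replicates 1, 2 and 3) form 1 group. The series text speaks of a mouse in the singular, and sex, the number of animals and the hour of collection are not stated in the texts used here. Levels are FPKM, fragment counts divided by transcript length and by the number of mapped fragments, summed over the isoforms of a gene, and can therefore be compared between genes of different length.

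In mammalian cells ARNTL (also called BMAL1) pairs with CLOCK or its close relative NPAS2, and the pair binds E-boxes to switch on the Per and Cry genes, the outputs Dbp and Tef, and Nr1d1. PER and CRY proteins then block that pair, while NR1D1 represses Arntl and Npas2 through RRE elements, and DBP and TEF act on D-boxes, so the loop repeats daily. In mouse peripheral tissues Arntl and Npas2 RNA is highest around the turn from night to day, and Dbp and Per RNA is highest from the later part of the day into the early night. In the gut the clock is known for the daily timing of epithelial renewal, absorption and motility.

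Elements of these kinds could be seen in the promoters of members from opposite sides of the loop. The sequences shown here are Arntl, whose window matched an RRE, and Per3, whose window matched a D-box at a pair of places. They are RefSeq promoter windows of 300 bases on GRCm38.p6, from 250 bases before a start site to 50 after it, written 5′ to 3′ on the gene's strand, with motif matches in capitals.
Arntl, chr7:113207261-113207560, plus strand: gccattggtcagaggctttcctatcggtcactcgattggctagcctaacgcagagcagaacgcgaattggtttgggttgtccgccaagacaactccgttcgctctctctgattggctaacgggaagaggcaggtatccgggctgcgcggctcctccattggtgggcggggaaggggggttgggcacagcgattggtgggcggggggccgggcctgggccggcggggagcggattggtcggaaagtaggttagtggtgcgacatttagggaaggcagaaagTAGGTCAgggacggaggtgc
Per3, chr4:151044616-151044915, minus strand: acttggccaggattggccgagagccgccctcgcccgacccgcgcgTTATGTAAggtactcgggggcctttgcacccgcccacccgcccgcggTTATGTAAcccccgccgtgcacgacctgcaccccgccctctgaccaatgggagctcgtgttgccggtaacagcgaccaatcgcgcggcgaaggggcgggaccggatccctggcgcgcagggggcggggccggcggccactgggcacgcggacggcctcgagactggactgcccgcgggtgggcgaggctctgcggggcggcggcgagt
The window of Arntl is that of the later of its RefSeq start sites, where the RRE core TAGGTCA began at base 31 of the transcript. Both Arntl isoforms in the files begin at the earlier start site, whose window, chr7:113207215-113207514, held no match to any motif searched. The RRE match lies just past the end of that window, downstream of the earlier start site. The D-boxes (TTATGNAA) of Per3 began at positions -205 and -158 relative to the start site. On either strand, TAGGTCA was found in 2.61% and TTATGNAA in 3.38% of all 32851 promoter windows. Windows were found for 9 of the 10 members, all but Per2, and numbered 14. The E-box CACGTG, present in 7.15% of all windows, was found in 4 windows of 3 members (Per1, Cry1 and both of Tef). The variant AACGTG, present in 4.68%, was found in Cry1 and Cry2. These are matches of letters, not measured sites of binding.

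The 3 files differed from each other by about as much as sampling noise. Among 8771 single-isoform genes averaging 1 FPKM or more, 4.96% had an unadjusted p under 0.05 in a chi-square test between files, and 7 (0.0798%) passed Benjamini-Hochberg adjustment at 0.05. The files were therefore counted as 1 sample. Every ± below is the SD over 3 files of that sample, with no estimate of the spread between animals. It is about the size of sampling noise, and whether it includes library preparation is not known. No test between conditions was possible. The depth recovered from the authors' confidence bounds came to about 3781000, 3786000 and 1243000 fragments for replicates 1, 2 and 3. All 9 colon epithelium markers were above 1 FPKM in every file, led by Lypd8 (8567 FPKM) and Zg16 (3151 FPKM). All 5 smooth muscle markers were above 10 FPKM, led by Tagln (754 FPKM) and Acta2 (554 FPKM), and fibroblast (Dcn, 188 FPKM; Col3a1, 112.5 FPKM), immune (Jchain, 314 FPKM; Lyz2, 125 FPKM), endothelial (Plvap, 16.1 FPKM; Lyve1, 11.7 FPKM) and enteric nerve markers (Vip, 36.0 FPKM; Uchl1, 15.6 FPKM) were present. Of 6 small intestine markers, 3 were above 10 FPKM in every file, led by Fabp6 (95.6 FPKM) and Slc15a1 (85.3 FPKM), and the other 3 were under 1 FPKM, with Gata4, named after its values were seen, listed at 0. All 4 liver markers were above 10 FPKM as well, led by Alb (129 FPKM) and Ttr (60.7 FPKM). The part of each cell type in the clock levels was not tested, and in bulk RNA fewer cells of a type and less RNA per cell cannot be told apart.

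The clock genes fell into a high group of 3 activators and a low group of 7 repressors and outputs. All 3 activators were above 10 FPKM in every file, a level that 21.4% of all gene symbols reached, and none of the other 7 members was. At 1 FPKM in every file stood 9 of the 10 members, against 48.5% of all symbols, and Dbp was the exception. The median of the 10 means was 4.54 FPKM. The median was 4.78 FPKM over the 17060 symbols above 0 and 1.25 FPKM over all symbols.

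**Figure D1:**
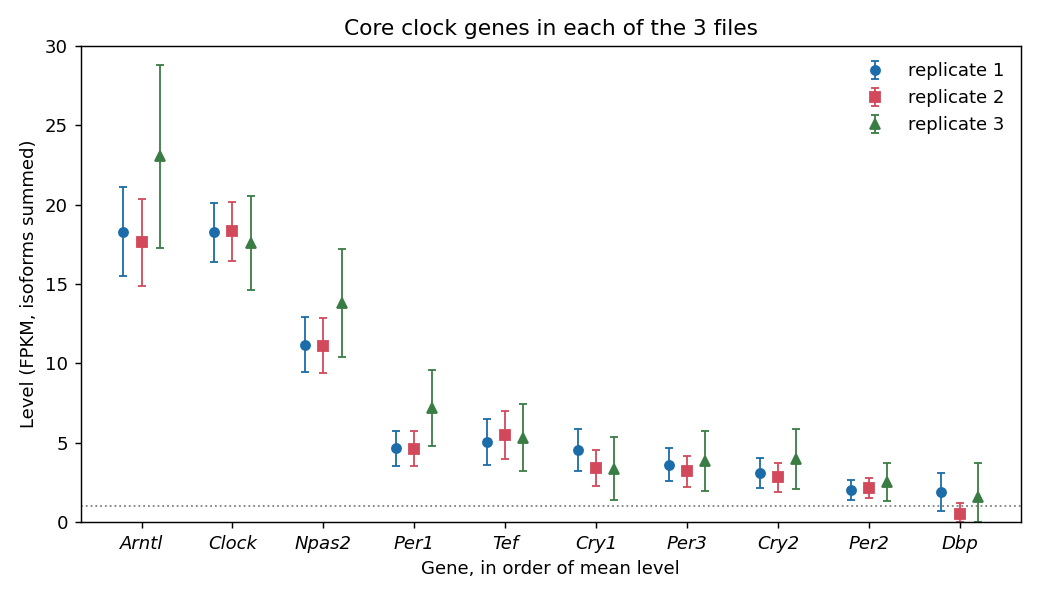
Level of each core clock gene (FPKM, isoforms summed, linear axis from 0) in replicates 1, 2 and 3, with genes in order of mean level. Error bars span 2 standard errors of sampling either way, built from the authors' confidence bounds and stopped at 0, and the dotted line marks 1 FPKM. Arntl, Clock and Npas2 stand at 11.1 FPKM or more in every file and the other 7 genes at 7.18 FPKM or less.

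Among the activators, Arntl (chromosome 7, 113207465 to 113314126, plus strand), whose product pairs with CLOCK or NPAS2, stood at 18.3, 17.6 and 23.0 FPKM in replicates 1, 2 and 3. Its mean was 19.7 ± 2.95 FPKM. Replicate 3, the shallowest file, was highest, and the unadjusted p between files was 0.177. Clock (chromosome 5, 76209868 to 76304792, minus strand), whose product also has acetyltransferase activity, stood at 18.3, 18.3 and 17.6 FPKM. Its mean of 18.1 ± 0.405 FPKM rested on the most fragments of any member, 1526 over the files. Clock varied least between files, with a highest value 1.04 times its lowest. Npas2 (chromosome 1, 39194272 to 39363240, plus strand), the CLOCK relative first known from the forebrain, stood at 11.2, 11.1 and 13.8 FPKM, a mean of 12.0 ± 1.54 FPKM. Npas2 thus lay below Clock in every file, and their values did not overlap. The mean of Clock was 1.5 times that of Npas2. Arntl and Clock overlapped, and their means differed by 1.19 standard errors of sampling. Arntl lay above 80.6% of the genes with a mean above 0, Clock above 79.1% and Npas2 above 70.8%.

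Of the repressors, Per1 (chromosome 11, 69098956 to 69109957, plus strand), the Period gene that also responds directly to glucocorticoid and cAMP signals, was highest, at 4.66, 4.64 and 7.18 FPKM. Its mean was 5.49 ± 1.46 FPKM, with replicate 3 above the other two. Per1 had the smallest p between files among the members (chi-square over sampling errors, unadjusted p = 0.0646, and 1.00 after Benjamini-Hochberg adjustment over 12629 genes). None of the 10 members had an adjusted p under 0.05 in that test, where 0.119% of all genes did, and none had an unadjusted p under 0.05. Per3 (chromosome 4, 151003655 to 151044665, minus strand), a Period gene that mice can lose with little effect on rhythm, stood at 3.63, 3.22 and 3.86 FPKM, a mean of 3.57 ± 0.326 FPKM. Per2 (chromosome 1, 91415982 to 91459328, minus strand), the Period gene whose mutation shortens and then abolishes mouse rhythms, was the lowest repressor, at 2.05, 2.14 and 2.55 FPKM, a mean of 2.25 ± 0.266 FPKM. The values of Per1, Per3 and Per2 did not overlap in any pair. The mean of Per1 was 2.44 times that of Per2.

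The cryptochromes, which bind the activator pair directly and hold it inactive, lay between Per1 and Per2. Cry1 (chromosome 10, 85131700 to 85185054, minus strand) stood at 4.54, 3.43 and 3.38 FPKM, with replicate 1 highest, and Cry2 (chromosome 2, 92403647 to 92434069, minus strand) at 3.10, 2.82 and 3.98 FPKM. Their means were 3.78 ± 0.657 and 3.30 ± 0.605 FPKM. Cry1, Per3 and Cry2 followed each other in the order of levels and were not separate, since the values of each overlapped those of the next and their means differed by 0.369 (Cry1 and Per3) and 0.484 (Per3 and Cry2) standard errors. Of the exonic bases of Cry2, 3.75% overlap a gene on the opposite strand (4.10% for Tef and 1.13% for Arntl), and whether strand was recorded is not stated.

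The D-box factors Dbp and Tef, transcription factors of the PAR bZIP family that carry the rhythm to genes of metabolism and detoxification, differed in level from each other. Tef (chromosome 15, 81802673 to 81826863, plus strand) stood at 5.04, 5.50 and 5.32 FPKM, a mean of 5.29 ± 0.232 FPKM that was 0.298 standard errors from that of Per1. Dbp (chromosome 7, 45705247 to 45710203, plus strand), usually among the most strongly cycling transcripts of a tissue, was the lowest member, at 1.92, 0.524 and 1.59 FPKM. Its mean was 1.35 ± 0.730 FPKM, and replicate 2 was lowest. These values correspond to 11, 3 and 3 fragments, 17 in all, and the depth-weighted level was 1.27 FPKM with an exact Poisson 95% interval of 0.742 to 2.04 FPKM that covers counting error only. The other members rested on 98 (Cry1) to 1526 (Clock) fragments. Tef was 4.14 times Dbp by depth-weighted levels (exact 95% interval 2.52 to 7.27, counting error only). Dbp and Per2 did not overlap, but their means differed by 1.84 standard errors, which lies within a 95% interval of sampling. By depth-weighted levels, however, Per2 was 1.70 times Dbp with an exact 95% interval of 1.01 to 3.02 that leaves out 1, so whether this pair is separate depends on the measure. Calling neighbours separate where their values did not overlap and the difference of means passed the first interval, the order was Arntl and Clock, then Npas2, then Per1 and Tef, then Cry1, Per3 and Cry2, then Per2 and Dbp. Of the exonic bases of Dbp, 29.3% overlap Sphk2, a sphingosine kinase gene on the opposite strand that stood at 14.2 ± 1.16 FPKM. Without strand, fragments from that stretch cannot be assigned to either gene with certainty, so the level of Dbp is uncertain. Sphk2 was looked at after its overlap was seen.

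The opposing sides of the loop were set against each other within each file, as the ratio of geometric means of Arntl, Npas2 and Clock to those of Per1, Per2, Per3, Dbp and Tef. The activators were higher 4.85-fold in replicate 1, 6.20-fold in replicate 2 and 4.94-fold in replicate 3. On the log2 scale the Per and Dbp side stood at -2.41 ± 0.20 relative to the activators. In all 15 pairs of an activator with a gene of the other side the file values did not overlap. The same held in 21 of 21 pairs when the cryptochromes were added. The cryptochromes are not part of that side, so their pairs compare levels only and were not used to read a phase. The ratio within a file ranged from 1.92 (Npas2 over Per1) to 35.0 (Clock over Dbp). Dbp gave the widest ratios. Arntl was 9.53, 33.6 and 14.5 times Dbp in replicates 1, 2 and 3, or 14.7 times by depth-weighted levels (exact 95% interval 9.06 to 25.4, counting error only). Arntl over Per2 was steadier, at 8.93, 8.23 and 9.03. Without Dbp the log2 ratio of the sides was -2.06.

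**Figure D2:**
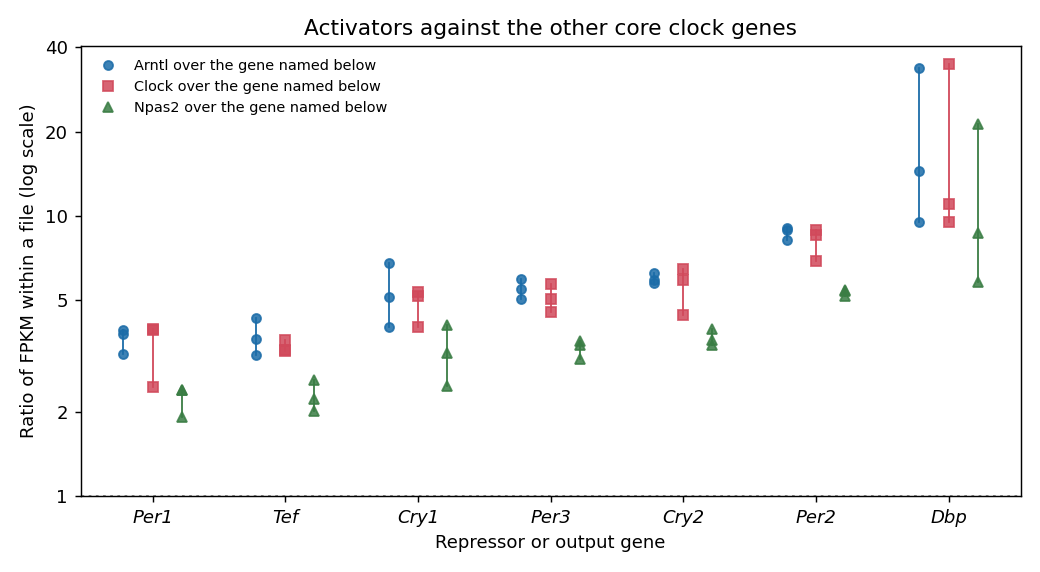
Ratio of FPKM within each file (log axis) of Arntl, Clock and Npas2 to each repressor or output gene, with 1 point for each of the 3 files and a line over their range. All ratios lie above 1, from 1.92 to 35.0, and those to Dbp spread most.

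By the textbook order of the loop, Arntl and Npas2 above Dbp and the Per genes are the arrangement of the hours around the Arntl peak. That peak lies near the turn from night to day, and the levels of these genes are compatible with that phase. Per1 and Tef lay less far below, with Npas2 at 1.92 to 2.40 times Per1 and 2.02 to 2.60 times Tef within a file. Nr1d1, the repressor of Arntl, is known to peak in the day, after Arntl and before Per2. It stood at 40.4, 37.6 and 41.4 FPKM, 1.80 to 2.2 times Arntl in the same file and 30.9 times Dbp by depth-weighted levels (exact 95% interval 19.2 to 53.2). Its relative Nr1d2 stood at 13.4 ± 0.512 FPKM. Read in the same way, Nr1d1 above Arntl is the arrangement of later hours, in the day, so the genes do not all point to the same phase. With Nr1d1 and Nr1d2 added to the Per and Dbp side, the log2 ratio was -1.57 in place of -2.41. Of the exonic bases of Nr1d1, 8.55% overlap Thra, a thyroid hormone receptor gene on the opposite strand, which stood at 18.2 ± 2.74 FPKM and was looked at after its overlap was seen. The data hold 1 sample at an hour not given, and the daily mean of each gene in this tissue was not measured, so a ratio between genes does not by itself give a phase.

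Several members have more than 1 promoter or splice form, and the files give each isoform its own level. For Per1 and Tef the isoforms begin at different first exons, and their promoters are shown because the share given to each start changed between files.
Per1 upstream start, chr11:69098699-69098998, plus strand: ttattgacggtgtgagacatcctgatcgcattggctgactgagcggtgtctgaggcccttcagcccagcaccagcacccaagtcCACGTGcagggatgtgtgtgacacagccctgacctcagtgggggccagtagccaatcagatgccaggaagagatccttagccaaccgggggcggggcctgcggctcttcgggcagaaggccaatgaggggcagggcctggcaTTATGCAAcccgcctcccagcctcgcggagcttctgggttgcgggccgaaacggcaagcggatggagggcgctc
Per1 downstream start, chr11:69099902-69100201, plus strand: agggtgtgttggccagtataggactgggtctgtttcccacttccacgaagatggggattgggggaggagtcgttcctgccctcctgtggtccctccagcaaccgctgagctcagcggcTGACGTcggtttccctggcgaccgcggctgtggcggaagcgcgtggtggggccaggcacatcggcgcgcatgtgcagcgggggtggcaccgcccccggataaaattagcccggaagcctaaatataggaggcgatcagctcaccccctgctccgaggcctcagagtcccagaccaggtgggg
Tef upstream start, chr15:81802423-81802722, plus strand: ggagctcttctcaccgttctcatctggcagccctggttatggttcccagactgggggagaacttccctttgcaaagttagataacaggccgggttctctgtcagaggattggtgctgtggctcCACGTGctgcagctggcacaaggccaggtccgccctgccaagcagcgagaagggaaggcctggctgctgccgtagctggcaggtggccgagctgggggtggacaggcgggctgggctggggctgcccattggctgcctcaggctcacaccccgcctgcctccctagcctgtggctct
Tef downstream start, chr15:81811164-81811463, plus strand: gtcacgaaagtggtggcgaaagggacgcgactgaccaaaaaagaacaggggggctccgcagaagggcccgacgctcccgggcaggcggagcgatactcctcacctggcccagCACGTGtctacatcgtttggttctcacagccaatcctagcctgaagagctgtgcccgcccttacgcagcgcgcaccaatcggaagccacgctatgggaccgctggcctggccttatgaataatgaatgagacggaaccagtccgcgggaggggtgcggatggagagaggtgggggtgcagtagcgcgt
Capitals again mark motif matches in the RefSeq windows on GRCm38.p6. The upstream window of Per1 held an E-box (CACGTG) and a D-box (TTATGCAA), and the downstream window a CRE core (TGACGT), the core of the element through which cAMP signals act. The CRE core was found in 7.51% of all windows. Each window of Tef held an E-box.

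In Per1 the isoform of the downstream start, NM_001159367, took 98.8% of the gene's FPKM in replicate 1 and 97.7% in replicate 3, but 0.130% in replicate 2. The isoform of the upstream start, NM_011065, took 99.9% in replicate 2. The authors' 95% bounds on NM_001159367 were 3.53 to 5.69 FPKM in replicate 1 and 0 to 0.124 FPKM in replicate 2, while the summed level of Per1 was 4.66 and 4.64 FPKM. In the GENCODE M21 models matched to them by RefSeq number, NM_001159367 has 38 bases and NM_011065 has 73 bases that the other lacks, 0.820% and 1.56% of their lengths. In Tef, NM_017376 of the downstream start took 54.7%, 50.1% and 99.8% in replicates 1, 2 and 3, with the rest given to NM_153484 of the upstream start. The 3 Clock isoforms differ in their start as well. NM_001305222 took 61.7%, 45.8% and 21.8%, NM_001289826 38.3%, 54.2% and 78.1%, and NM_007715 at most 0.0421%.

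The shares of Arntl and Per3, whose isoforms begin at the same base in the files, moved less. NM_007489 took 92.1% of Arntl in replicate 3 and nearly all of it in the other files. In Per3, NM_011067 took 59.4%, 59.1% and 53.3% and NM_001289877 40.5%, 40.8% and 46.6%. These isoforms, of 5996 and 5999 bases, matched the same GENCODE M21 model, so the bases that tell them apart were not found. The closeness of the Per3 shares between files is therefore no evidence of a stable share. Whether the shared start plays a part was not tested. Of the 5 members with more than 1 isoform, 3 (Per1, Tef and Clock) had an isoform whose 95% bounds did not overlap between files. The same held for 56.6% of the 3858 genes with at least 2 isoforms and a mean of at least 1 FPKM, so the members' count was near the background. A share moved by over 50 percentage points in 1 member, Per1, and in 29.8% of those genes. The isoform levels of Per1, Tef and Clock thus differed between files of 1 sample beyond the authors' bounds. None of the 5 summed levels was called different between files by the chi-square test, which does not show that they were equal. The remaining 5 members (Npas2, Per2, Cry1, Cry2 and Dbp) have 1 isoform each in the files.

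**Figure D3:**
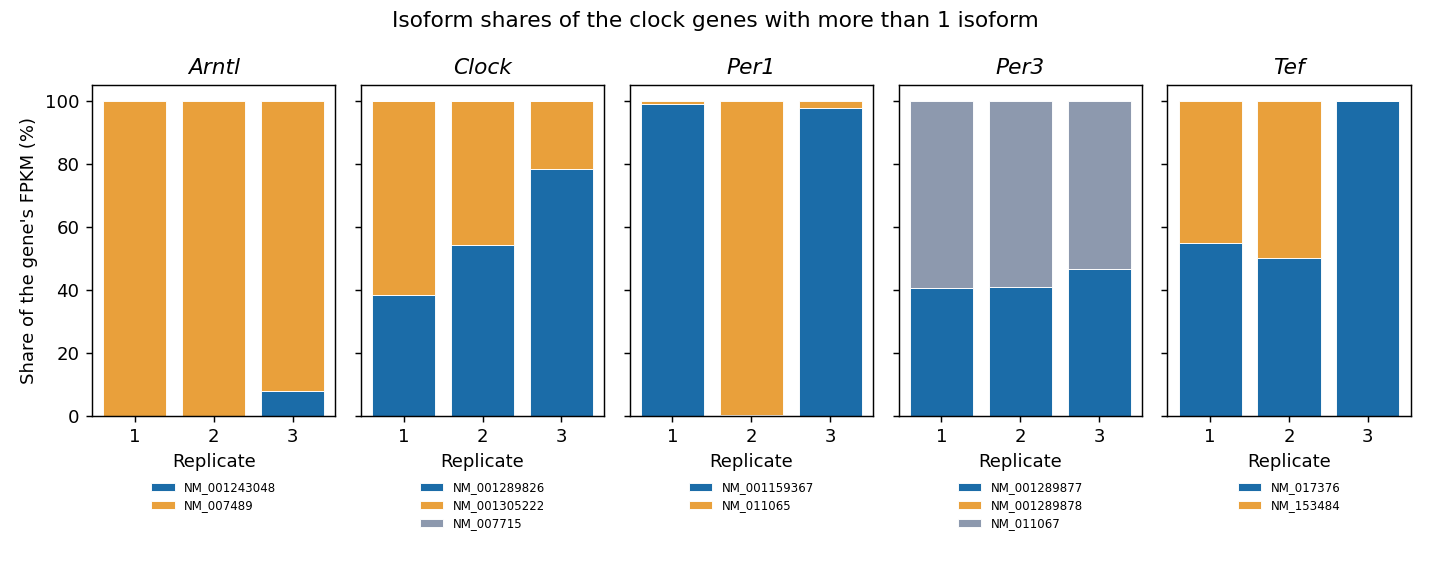
Share of each isoform in the summed FPKM of its gene (%, stacked bars from 0 to 100) in replicates 1, 2 and 3, for the 5 members with more than 1 isoform. Per1 changes from 98.8% of NM_001159367 in replicate 1 to 0.130% in replicate 2, and Tef and Clock change in part, while Arntl and Per3 stay close.

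Other genes of the clock pathway covered a wide range, and 29 of 36 with values, outside the hormone response list, stood at 1 FPKM or more in every file. Of the 30 that could be tested between files, none was called after Benjamini-Hochberg adjustment, against 0.119% of all genes, and 1 had an unadjusted p under 0.05. The loop through Nr1d1 and the bHLH repressors was uneven. Of its 9 genes 5 reached 1 FPKM in every file. Bhlhe40, a bHLH repressor that competes for E-boxes, was highest at 50.1 ± 5.71 FPKM, above Nr1d1 and Nr1d2, and Rora, an activator at RRE elements, stood at 1.48 ± 0.259 FPKM. Ciart (0.429, 0.859 and 1.31 FPKM) and Bhlhe41 (0.635, 0.227 and 0.138 FPKM), of the same list, were under 1 FPKM in mean, and were named after their values were seen. Bhlhe40, Nr1d1, Ciart and Bhlhe41 each share at least 100 bases at 97% identity or more with a transcript of another gene, so their levels are uncertain. Nfil3, which represses at D-boxes where Dbp and Tef activate, stood at 2.75, 1.74 and 3.08 FPKM, above Dbp in mean and below Tef in every file. The third PAR bZIP gene, Hlf, stood at 1.11, 0.960 and 1.32 FPKM, and was also named after its values were seen.

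Genes that act on clock proteins were mostly above the core repressors. Of 17 genes for kinases, phosphatases, ubiquitin ligases, proteases and partners, 14 had a mean above that of every Per and Cry gene, and the median of the 17 was 17.5 FPKM. Over all 36 pathway genes these values were 23 genes and 15.8 FPKM. For scale, Per1, the highest Per or Cry gene, itself lay above only 67.1% of all gene symbols and 53.0% of those above 0. All 7 kinase and phosphatase genes reached 1 FPKM in each of the files (median 29.1 FPKM). Csnk1d, a kinase of PER proteins, stood at 29.1 ± 0.509 FPKM and its relative Csnk1e at 6.22 ± 0.594 FPKM. Of 5 genes for ubiquitin ligases and proteases, 4 did so. Fbxw11 and Btrc, ligase subunits that send PER to the proteasome, stood at 17.3 ± 0.757 and 2.49 ± 0.411 FPKM, and the protease Usp2 at 5.59 ± 0.720 FPKM. All 5 partner genes did so, among them Cipc, an inhibitor of CLOCK, at 21.0 ± 1.00 FPKM. Of 8 output genes 7 did so. Nampt, an enzyme of NAD synthesis, stood at 16.7 ± 1.12 FPKM, Noct (listed as Ccrn4l) at 20.9 ± 2.49 FPKM and the cell cycle kinase Wee1 at 5.19 ± 0.651 FPKM. Csnk1e, Usp2 and Noct share such a stretch with another gene.

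Genes that respond to glucocorticoids and cAMP, the inputs known to act on Per1, were all detected. All 10 stood at 1 FPKM or more in each of the files (median 19.7 FPKM). Sgk1 stood at 45.1 ± 5.82 FPKM, Tsc22d3 at 34.8 ± 1.17 FPKM, Klf9 at 26.7 ± 2.15 FPKM and Fkbp5 at 12.8 ± 2.11 FPKM. Fos, an immediate early gene that cAMP also induces, was the highest of the list at 71.9 ± 3.39 FPKM, followed by Zfp36 at 56.9 ± 1.59 FPKM, and Dusp1 stood at 12.4 ± 3.03 FPKM. The lowest were Nr4a1 (3.32 ± 1.67 FPKM) and the cAMP-responsive genes Crem (2.71 ± 1.06 FPKM) and Sik1 (2.47 ± 0.938 FPKM), whose means lay between those of Per2 and Per3. Their part in the level of Per1 was not tested.

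**Figure D4:**
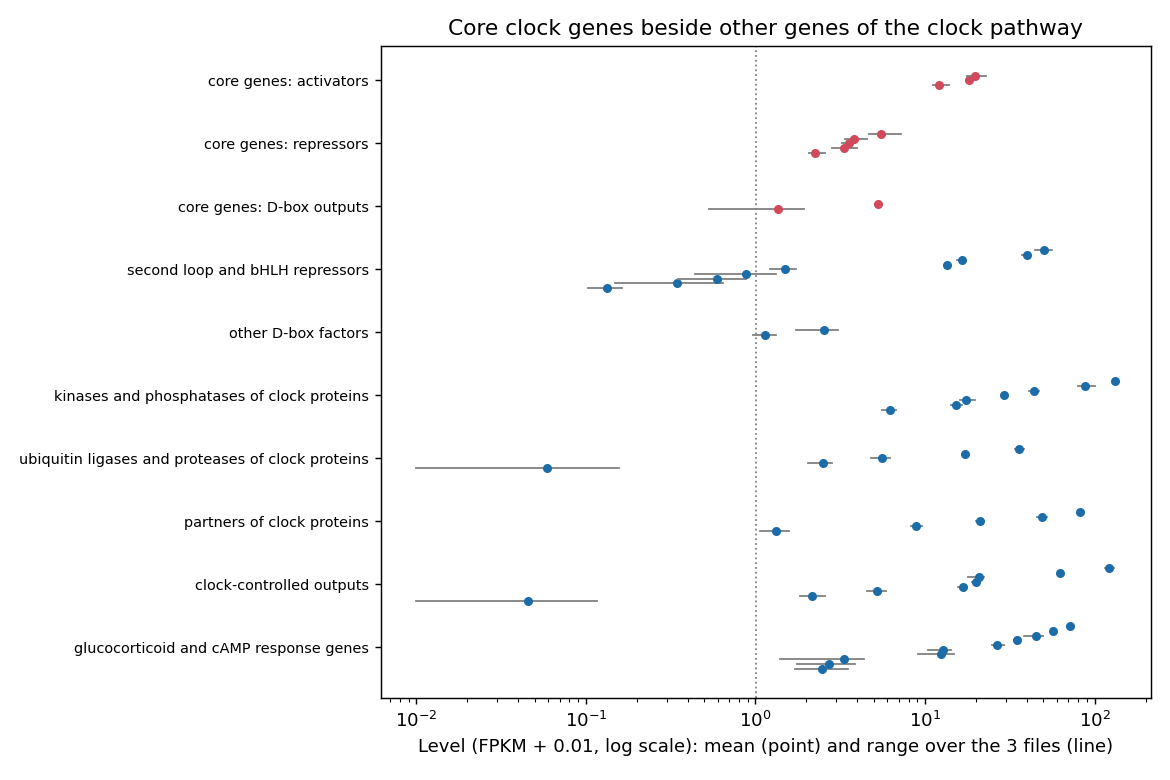
Mean level (points, FPKM + 0.01, log axis) and range over the 3 files (lines) of the core clock genes (red) and of other genes of the clock pathway (blue), grouped by role; the dotted line marks 1 FPKM. The core activators lie between 12.0 and 19.7 FPKM, the repressors between 2.25 and 5.49 FPKM, and Bhlhe40 and Nr1d1 stand at 50.1 and 39.8 FPKM.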

How the data were processed

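FPKM values per RefSeq isoform, with lower and upper 95% bounds, were deposited by the authors, who made them with Cufflinks per the file headers. The authors also deposited read coverage per isoform, an unscaled signal used only for an alternative isoform share. Per the submitters' processing notes the tools were Cufflinks 2.2.1, Bowtie2 2.3.4.3 and TopHat2 2.1.1. Those notes name GRCm39, but 97.5% of 23107 symbols lay within 1000 bases of a RefSeq start or end on GRCm38.p6, so positions are given as GRCm38.

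Isoform FPKM were summed per symbol. The upper bound less the FPKM was read as 2 standard errors, and FPKM over the squared error, regressed on length (Theil-Sen), gave the depth. With it, 14 of 15 values of the 5 single-isoform members fell within 0.1 of a whole fragment. Isoform variances were summed, which ignores their covariance. Files were scaled to a common median ratio for the chi-square test, which was tested on simulated data. Motifs were searched by exact letters on either strand. BLAST+ 2.17.0 searched for near-identical copies: besides overlaps with genes on the opposite strand (Cry2, Dbp and Tef), none of the 10 members had one. The scripts used SciPy 1.17.1, statsmodels 0.14.6, pandas 2.3.3, numpy 2.4.6 and matplotlib 3.10.9 under Python 3.11.15.

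Members and lists were chosen with earlier results of these data known. Named genes are all members, genes of the pathway lists at 1 FPKM or more in every file or at 0, and the 2 highest of each marker list. Genes outside that rule are said to have been named after their values, or their overlap with another gene, were seen. Some genes of the lists are not reported here.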

Additional observations from a re-analysis of the deposited data

How the results depend on the processing

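Levels were recomputed without each replicate in turn and with files weighted by depth. With 3 files of these depths such values cannot leave 1 SD of the mean, so staying within it is no check of stability. Under these settings Arntl ranged from 18.0 to 20.7 FPKM and Dbp from 1.06 to 1.76 FPKM. Rescaling each file to TPM multiplied every level by 2.33 to 2.35. Taking the highest isoform alone lowered Clock from 18.1 to 11.7, Tef from 5.29 to 3.61 and Per3 from 3.57 to 2.04 FPKM. The log2 ratio of the Per and Dbp side to the activators kept its sign in every alternative. Every activator value (11.1 FPKM or more) exceeded every value of that side (7.18 FPKM or less). Leaving out a replicate or Dbp, or adding a pseudocount, therefore could not change the sign. The log2 ratio was -2.03 with a pseudocount of 1 FPKM, -1.48 from summed FPKM, -2.06 without Dbp and -1.57 with Nr1d1 and Nr1d2 added. The last pair of settings was added after the data were seen. Without each replicate in turn the log2 ratio lay between -2.47 and -2.29. At a threshold of 5 FPKM, 4 members passed in every file in place of 9. The share of all symbols at 5 FPKM was not computed, so that count has no background beside it. Without each replicate in turn, 9 to 10 members passed at 1 FPKM. Calls between files numbered 7, 11 among genes with a mean of at least 10 FPKM, 15 when genes with several isoforms were added, and 4 without replicate 1, 4 without replicate 2 and 6 without replicate 3. Non-overlapping isoform bounds were seen in 3 members, from 2 to 3 without each replicate in turn, and a share change of over 50 points in 1. The cause of these shifts was not tested. No paired analysis was possible because the 3 files form 1 group. Depth limits Dbp most, with 17 fragments.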
